A study of Mus musculus with 18 samples.

Results

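The genes that write, copy and read DNA methylation were examined in nascent RNA of mouse embryonic stem (mES) cells. The group held 9 of the 54446 genes counted, namely the methyltransferases *Dnmt1*, *Dnmt3a* and *Dnmt3b*, their cofactors *Dnmt3l* and *Uhrf1*, and the methyl-CpG binding domain genes *Mbd1*, *Mbd2*, *Mbd3* and *Mbd4*. They were chosen by symbol and not by a cut on their values, though earlier results of these data were known. Each symbol matched 1 row of the count files through its Ensembl identifier in GENCODE M21. Cells labelled wild type (WT) and *Tet2*-knockout (*Tet2*-KO) were given 1 mM 5-ethynyl uridine (EU), a uridine analogue that enters newly made RNA, for 10, 20 or 40 min. The EU-labelled RNA was captured through biotin and sequenced, with 3 replicates for each genotype and time, 6 groups and 18 libraries in all. Both genotypes grew in serum with LIF and the inhibitors PD0325901 and CHIR99021 (2i), and feeder cells were cleared by passages on gelatin before the experiments. The methods name no more than 1 line per genotype. The p-values therefore measure the spread between samples of these lines, and an effect of *Tet2* cannot be told apart from other differences between them.

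In mammals most DNA methylation lies on the cytosine of CpG. DNMT3A and DNMT3B place it de novo, with DNMT3L as a partner that has no activity of its own. After replication UHRF1 binds CpG methylated on the old strand only and recruits DNMT1, which copies the mark. Proteins with a methyl-CpG binding domain read it: MBD1 and MBD2 bind methylated CpG, MBD2 and MBD3 are alternative subunits of the NuRD deacetylase complex, and MBD4 is a glycosylase that removes thymine or uracil mispaired at CpG. TET2 oxidizes 5-methylcytosine and so works against these writers on DNA. Culture in 2i is known for low levels of *Dnmt3a*, *Dnmt3b* and *Dnmt3l* and for low DNA methylation.

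Each library held 17931614 to 23069143 gene reads and 44162 to 512186 reads on ERCC transcripts. This spike-in was added after capture, to the eluted RNA, in proportion to the total RNA of each sample. Each of the 9 genes had at least 364 reads in every library and entered the tests on 19910 genes. Levels are given on 2 scales. The first, reads per 1000 ERCC reads, is a level relative to total RNA and not per cell. On it fewer labelled cells, less new RNA per cell and a lower yield of the capture cannot be told apart. The second, counts per 1000000 gene reads (CPM), is the share of the library. Reads on *Tet2* were present in the libraries labelled *Tet2*-KO, where the log2 fold change was 0.54 ± 0.049 (SE, adjusted p = 2.42e-24) per ERCC read and -0.20 ± 0.011 (SE, adjusted p = 1.42e-16) as a share, and gene totals leave the deleted exon unseen. Pluripotency markers were present in all libraries, except that *Sox2* was listed at 0 in all 18. *Sox2* lies inside the gene *Sox2ot* on the same strand, and how reads on overlapping genes were counted is not given in the sources used here, so this 0 does not show absence. The summed share of the list was 3081 to 3240.2 CPM in WT and 2355 to 2456 in *Tet2*-KO. Within this list 5 of 7 tested genes were lower in share and 2 were higher, led by *Zfp42* at -2.25 ± 0.017 (SE, adjusted p = 7.12e-41). Over all genes tested 32% were lower and 24.6% higher. Of 4 tested primed epiblast markers 1 was higher and 2 lower (median -0.42), from *Fgf5* at -1.60 ± 0.53 (SE, adjusted p = 0.0111) and *Lef1* at -0.70 ± 0.085 (SE, adjusted p = 1.21e-08) to *Otx2* at 2.17 ± 0.11 (SE, adjusted p = 1.18e-17). Summed shares of fibroblast feeder markers (8 genes) were 17.8 to 38.8 and 15.2 to 26.2 CPM, and those of primitive endoderm markers (6 genes) 14.9 to 21.7 and 14.7 to 19.0. In both pairs the first range is WT and the second *Tet2*-KO, and the feeder markers *Dcn*, *Lum* and *Thy1* were too low to be tested. The part of cell state or of these other cell types in the values below was not tested.

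The upstream sequences of the 3 genes whose shares differed most between the genotypes are shown with every CpG in capitals, since the methylation of such sites is the product of this gene family. Each is RefSeq sequence on GRCm38.p6, the mm10 build, written 5′ to 3′ on the strand of the gene, and is the longest run free of annotated exons in the 250 bases before the first base of the transcript. The *Dnmt3b* stretch is chr2:153649199-153649448 on the plus strand, the *Dnmt3l* stretch chr10:78042136-78042286 on the plus strand and the *Mbd4* stretch chr6:115853372-115853469 on the minus strand.
Dnmt3b: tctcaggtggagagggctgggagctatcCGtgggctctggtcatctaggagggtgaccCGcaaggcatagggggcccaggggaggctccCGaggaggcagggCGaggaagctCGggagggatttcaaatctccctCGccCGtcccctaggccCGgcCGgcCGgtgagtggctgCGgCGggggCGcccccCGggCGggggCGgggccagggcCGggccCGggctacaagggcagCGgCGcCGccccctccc
Dnmt3l: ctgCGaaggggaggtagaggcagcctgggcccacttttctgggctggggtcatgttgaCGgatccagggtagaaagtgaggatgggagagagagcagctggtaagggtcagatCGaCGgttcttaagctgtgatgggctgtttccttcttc
Mbd4: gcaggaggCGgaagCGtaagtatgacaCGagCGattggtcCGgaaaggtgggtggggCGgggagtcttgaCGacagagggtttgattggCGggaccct
The full 250 bases held 21 CpG for *Dnmt3b*, 22 for *Mbd4* and 5 for *Dnmt3l*, which has RefSeq starts further downstream with 4 and 3. The median over 32851 promoter windows of that length was 6, and 83.7%, 85.2% and 44.4% of the windows held fewer than these 3 genes in that order. The *Dnmt3l* stretch lies between exons of a longer annotated *Dnmt3l* form and inside *Aire*, which is transcribed from the other strand, and the *Mbd4* stretch fills the gap between the first exons of *Mbd4* and *Ift122*, which are transcribed away from each other.

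Per kilobase of exon the maintenance genes had the highest mean shares. In WT the share per exon kilobase, over 9 libraries, was 37.2 ± 2.15 CPM (SD) for *Uhrf1*, 36.4 ± 3.69 for *Dnmt1*, 32.6 ± 4.80 for *Mbd3* and 26.6 ± 2.06 for *Mbd2*, and the ranges of successive genes in this order overlapped. The lower 5 were *Dnmt3l* at 13.9 ± 1.15, *Mbd4* at 9.77 ± 0.901, *Dnmt3b* at 8.16 ± 0.598, *Mbd1* at 5.27 ± 0.477 and *Dnmt3a* at 2.14 ± 0.466, with no overlap between neighbours in the order or between *Mbd2* and *Dnmt3l*. In *Tet2*-KO *Dnmt3b* stood above *Dnmt3l* and *Mbd4*, at 12.6 ± 0.904 against 8.02 ± 0.790 and 6.09 ± 0.880, with no overlap between the range of *Dnmt3b* and that of *Dnmt3l*. The order of the other genes differed from WT by an exchange of *Uhrf1* at 36.6 ± 2.85 and *Dnmt1* at 36.7 ± 3.30, which overlapped in both genotypes. Gene span in place of exon length put *Mbd3* first and left *Dnmt3a* last in both genotypes, and most ranks between them moved. Per kilobase of span *Mbd4* stood above *Dnmt3b* in *Tet2*-KO, at 2.54 ± 0.367 CPM (SD) against 1.68 ± 0.121. In WT it stood above *Dnmt3l*, at 4.07 ± 0.375 against 1.91 ± 0.158.

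As a share of gene reads the writers did not move together. When the 3 labelling times were averaged, the quasi-likelihood test of edgeR (p adjusted by Benjamini-Hochberg over 19910 genes) called *Dnmt3a* and *Dnmt3b* higher in *Tet2*-KO and *Dnmt3l*, *Mbd4* and *Mbd2* lower, which is 2 and 3 of 9. Over all genes tested 24.6% were called higher and 32% lower, so calls were about as frequent in the family as in all genes, and the median log2 fold change was -0.057 for the 9 genes and -0.037 for all. Every *Tet2*-KO library lay above every WT library at all 3 labelling times for *Dnmt3a* and *Dnmt3b*, as for 11.8% of all genes, and below for *Dnmt3l* and *Mbd4*, as for 13.9%. At 10 min, 20 min and 40 min alone 2 genes were higher and 3 lower each time, against 17.9%, 17.6% and 18.9% of all genes higher and 27.1%, 20.7% and 19.6% lower. *Dnmt3a*, *Dnmt3b*, *Dnmt3l* and *Mbd4* were among those called each time, with *Mbd2* lower at 10 and 40 min and *Uhrf1* lower at 20 min. The third lower call depended on scaling: TMM gave 2 lower genes at each single time, and DESeq2 with gene size factors gave 2 at 10 min and 3 at 20 and 40 min. Both gave 3 higher at 20 min, with *Dnmt1* added, and 2 higher at 10 and 40 min. Over the mean of times TMM and DESeq2 each gave 3 higher and 3 lower, again with *Dnmt1*. At 10 min TMM split all genes into 4477 higher and 4262 lower in place of 3554 and 5389.

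**Figure D1:**
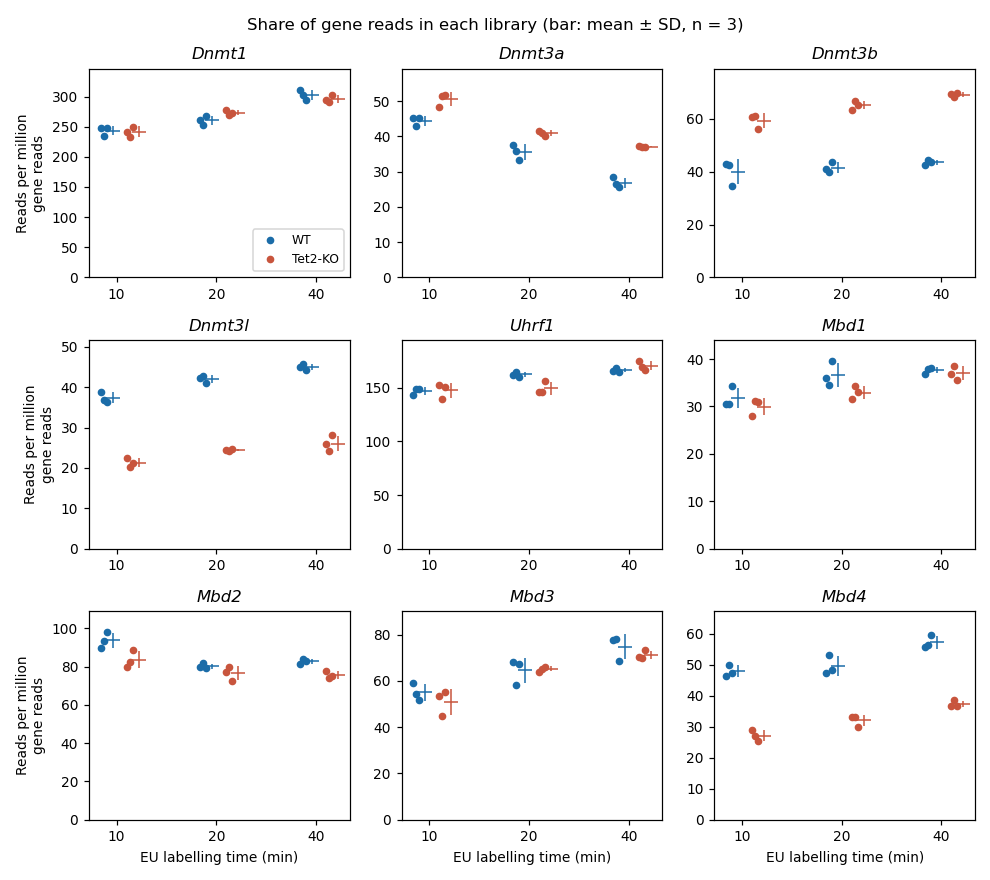
CPM, or reads per 1000000 gene reads (y axis, from 0) against EU labelling time (x axis, min) for the 9 genes, 1 point per library, with WT in blue and *Tet2*-KO in red and the mean ± SD of 3 libraries beside each group. The colours separate at every time for *Dnmt3a* and *Dnmt3b* (red above) and for *Dnmt3l* and *Mbd4* (red below), and overlap at all 3 times for *Mbd3*.

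*Dnmt3b* (ENSMUSG00000027478, chr2:153649450-153687730, plus strand) was the gene with the highest rise in share. In WT it had CPM values of 42.8, 42.5 and 34.4 at 10 min, 41.0, 39.8 and 43.7 at 20 min and 42.6, 44.4 and 43.7 at 40 min. The *Tet2*-KO shares were 60.8, 61.2 and 55.9 at 10 min, 63.5, 66.6 and 65.2 at 20 min and 69.4, 68.1 and 69.8 at 40 min. The lowest *Tet2*-KO library stood above the highest WT library at each time. The log2 fold change over the mean of times was 0.63 ± 0.036 (SE, adjusted p = 1.24e-16), a fold of 1.55, and 90.9% of the tested genes had a lower value. At the single times it was 0.57 ± 0.062, 0.65 ± 0.062 and 0.67 ± 0.061. The neighbouring paralog *Dnmt3c*, with which reads could be split, had 0.343 to 1.47 CPM.

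*Dnmt3a* (ENSMUSG00000020661, chr12:3806007-3914443, plus strand), the other de novo enzyme, rose less. Its WT shares were 45.1, 42.9 and 45.3 at 10 min, 37.6, 36.0 and 33.3 at 20 min and 28.4, 26.6 and 25.5 at 40 min. Its *Tet2*-KO shares were 48.4, 51.6 and 51.8 at 10 min, 41.6, 41.1 and 40.1 at 20 min and 37.3, 36.9 and 37.1 at 40 min. The groups did not overlap at any time, and in both genotypes the libraries with longer labelling were lower. The log2 fold change was 0.28 ± 0.035 (SE, adjusted p = 1.47e-08), a fold of 1.22, with 80.8% of the tested genes below it. The ratio of *Dnmt3b* to *Dnmt3a* reads needs no scale between libraries. It was 0.948, 0.992 and 0.761 at 10 min, 1.09, 1.11 and 1.31 at 20 min and 1.50, 1.67 and 1.71 at 40 min in WT. In *Tet2*-KO it was 1.26, 1.18 and 1.08 at 10 min, 1.53, 1.62 and 1.63 at 20 min and 1.86, 1.84 and 1.88 at 40 min. The groups did not overlap at any time and the ratio was higher in *Tet2*-KO (log2 difference 0.34, fold 1.27, exact two-sided permutation test within labelling times over 8000 exchanges, p = 0.00025, the smallest it can give, adjusted p = 0.0005 over 4 ratios).

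*Dnmt3l* (ENSMUSG00000000730, chr10:78041947-78063622, plus strand), the inactive cofactor of both enzymes, went the other way and had the lowest log2 fold change of the 9 genes. It had CPM values of 38.9, 36.9 and 36.4 at 10 min, 42.3, 42.8 and 41.0 at 20 min and 44.9, 45.8 and 44.2 at 40 min in WT. In *Tet2*-KO they were 22.5, 20.2 and 21.3 at 10 min, 24.4, 24.3 and 24.7 at 20 min and 25.9, 24.2 and 28.1 at 40 min. All *Tet2*-KO libraries lay below all WT libraries, whatever the labelling time. The log2 fold change was -0.79 ± 0.038 (SE, adjusted p = 1.09e-18), a fold of 0.578, and 7.41% of the tested genes had a lower value. *Dnmt3l* shares 67 exon bases with the antisense gene *Aire*, whose share was also lower at -0.56 ± 0.071 (SE, adjusted p = 3.09e-08), and whether reads were counted by strand is not given in the sources used here. The ratio of *Dnmt3l* to *Dnmt3a* reads was 0.862, 0.861 and 0.804 at 10 min, 1.13, 1.19 and 1.23 at 20 min and 1.58, 1.72 and 1.73 at 40 min in WT. The same ratio was 0.466, 0.391 and 0.411 at 10 min, 0.587, 0.591 and 0.615 at 20 min and 0.694, 0.656 and 0.756 at 40 min in *Tet2*-KO, below WT at each time without overlap (log2 difference -1.08, fold 0.473, same exact permutation test, p = 0.00025, adjusted p = 0.0005).

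**Figure D2:**
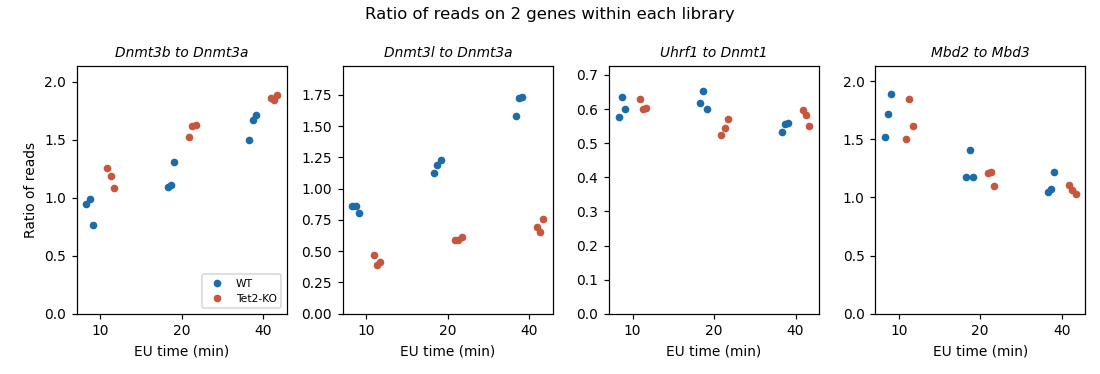
Ratio of reads on 2 genes (y axis, from 0) against EU labelling time (x axis, min), 1 point per library, WT in blue and *Tet2*-KO in red. *Dnmt3b* to *Dnmt3a* is higher and *Dnmt3l* to *Dnmt3a* lower in *Tet2*-KO at every time, while *Uhrf1* to *Dnmt1* and *Mbd2* to *Mbd3* did not pass the test.

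The maintenance pair differed little in share. *Dnmt1* (ENSMUSG00000004099, chr9:20907209-20959888, minus strand) had CPM values of 248, 235 and 247 at 10 min, 261, 253 and 267 at 20 min and 311, 302 and 294 at 40 min in WT. Its *Tet2*-KO shares were 242, 233 and 250.2 at 10 min, 278, 269 and 273 at 20 min and 294, 291 and 303 at 40 min. The groups overlapped at 10 and 40 min, and *Tet2*-KO stood above WT at 20 min. Its log2 fold change was 0.0097 ± 0.017 (SE, adjusted p = 0.658). Both TMM scaling and DESeq2 with gene size factors called it higher, at 0.050 (adjusted p = 0.0109) and 0.045 (adjusted p = 0.0207). *Uhrf1* (ENSMUSG00000001228, chr17:56303321-56323486, plus strand) had a log2 fold change of -0.025 ± 0.020 (SE, adjusted p = 0.294), positive under TMM at 0.015. Its WT shares were 143, 149 and 149 at 10 min, 162, 165 and 160.4 at 20 min and 166, 169 and 165 at 40 min. In *Tet2*-KO its shares were 153, 139.7 and 151 at 10 min, 146, 146 and 156 at 20 min and 175, 169.8 and 167 at 40 min. The genotypes overlapped at 10 and 40 min and *Uhrf1* was lower in *Tet2*-KO at 20 min, at -0.12 ± 0.035 (SE, adjusted p = 0.00597). The ratio of *Uhrf1* to *Dnmt1* reads was 0.577, 0.637 and 0.601 at 10 min, 0.619, 0.653 and 0.601 at 20 min and 0.533, 0.557 and 0.560 at 40 min in WT. It was 0.631, 0.599 and 0.603 at 10 min, 0.525, 0.545 and 0.572 at 20 min and 0.596, 0.583 and 0.550 at 40 min in *Tet2*-KO (log2 difference -0.036, fold 0.975, exact permutation p = 0.367, adjusted p = 0.367). The log2 differences at 10, 20 and 40 min were 0.015, -0.19 and 0.066, and the test used their mean. At 20 min *Tet2*-KO lay below WT without overlap. The 95% intervals of the log2 fold changes ran from -0.024 to 0.044 for *Dnmt1* and from -0.064 to 0.014 for *Uhrf1*.

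Among the readers *Mbd2* and *Mbd4* had lower shares in *Tet2*-KO, and *Mbd1* and *Mbd3* were not called. *Mbd2* (ENSMUSG00000024513, chromosome 18, plus strand), which joins methylated CpG to NuRD, had CPM values of 89.9, 93.5 and 98.0 at 10 min, 79.7, 81.8 and 79.4 at 20 min and 81.5, 83.8 and 83.2 at 40 min in WT. Shares in *Tet2*-KO were 80.1, 82.2 and 88.9 at 10 min, 77.2, 79.8 and 72.5 at 20 min and 78.0, 74.0 and 75.3 at 40 min. *Tet2*-KO lay below WT at 10 and 40 min and overlapped it at 20 min, and the log2 fold change was -0.12 ± 0.026 (SE, adjusted p = 2.09e-04), a fold of 0.920. *Mbd3* (ENSMUSG00000035478, chr10:80392539-80399550, minus strand), the NuRD subunit that largely lacks preference for methylated CpG, had WT shares of 59.1, 54.5 and 51.8 at 10 min, 68.0, 58.2 and 67.4 at 20 min and 77.9, 78.1 and 68.4 at 40 min. Its *Tet2*-KO shares were 53.3, 44.6 and 55.0 at 10 min, 64.0, 65.3 and 66.1 at 20 min and 70.4, 69.8 and 73.3 at 40 min. The genotypes overlapped at each time and the log2 fold change was -0.057 ± 0.038 (SE, adjusted p = 0.211), with a 95% interval from -0.13 to 0.018. The ratio of *Mbd2* to *Mbd3* reads had means of 1.71, 1.25 and 1.11 in WT and 1.65, 1.17 and 1.07 in *Tet2*-KO at 10, 20 and 40 min (exact permutation p = 0.25, adjusted p = 0.333). *Mbd1* (ENSMUSG00000024561, chromosome 18, plus strand), a reader that works with the H3K9 methyltransferase SETDB1, had CPM values of 30.6, 30.5 and 34.2 at 10 min, 36.0, 34.4 and 39.5 at 20 min and 36.9, 37.8 and 38.1 at 40 min in WT. They were 27.9, 31.1 and 30.9 at 10 min, 31.6, 34.3 and 32.9 at 20 min and 36.9, 38.6 and 35.6 at 40 min in *Tet2*-KO. The ranges were apart at 20 min, with *Tet2*-KO below, and the log2 fold change of -0.088 ± 0.039 (SE, adjusted p = 0.0557) lay near the threshold.

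*Mbd4* (ENSMUSG00000030322, chr6:115840697-115853371, minus strand), the repair glycosylase, fell almost as far as *Dnmt3l*. It had CPM values of 46.5, 50.0 and 47.3 at 10 min, 47.3, 53.2 and 48.3 at 20 min and 55.7, 56.3 and 59.5 at 40 min in WT. In *Tet2*-KO they were 29.0, 26.9 and 25.4 at 10 min, 33.2, 33.0 and 30.1 at 20 min and 36.8, 38.6 and 36.6 at 40 min. No *Tet2*-KO library of any labelling time reached a WT library. The log2 fold change was -0.69 ± 0.036 (SE, adjusted p = 1.83e-17), a fold of 0.621, with 9.31% of the tested genes below it. Chromosome 6 as a whole was lower in these libraries, with a median log2 fold change of -0.24 over 1009 other tested genes, and it held 5.58% to 5.75% of gene reads in WT and 5.03% to 5.14% in *Tet2*-KO. Of 20 tested genes within 500 kb of *Mbd4*, 15 were lower and 1 was higher, beside 32% and 24.6% of all genes tested. Their median was -0.36, and *Ift122* on the other side of the printed stretch had -0.32. As a share of the reads on the other genes of its own chromosome, *Mbd4* had a mean log2 difference of -0.53, beside -0.69 as a share of all gene reads. This alternative was chosen after seeing the data. *Mbd4* shares 264 exon bases with the antisense gene *Gm44206*, which had 3.52 to 12.6 CPM.

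The surroundings of the other genes differed from gene to gene. *Dnmt3l* lay on chromosome 10, where the median was -0.053. Of 22 tested genes within 500 kb of it 7 were lower and 5 higher, with a median of -0.16. Its nearest neighbours were both lower, *Pfkl* upstream at -0.25 and *Icosl* downstream at -0.77. Around *Dnmt3b* 3 of 14 genes were higher and 3 lower, and around *Dnmt3a* 3 of 17 were higher and 6 lower. Of 4 tested genes around *Mbd2* 1 was higher and 0 lower. *Uhrf1*, itself not called over the mean of times, had 15 lower and 2 higher genes among 37, and the median of chromosome 17 was -0.11. Over all genes tested 32% were lower and 24.6% higher. Chromosome 17 held 5.82% to 6.52% of gene reads in WT and 5.54% to 5.98% in *Tet2*-KO. As a share of it *Uhrf1* was 0.063 on the log2 scale, the opposite sign to its share of all gene reads. *Mbd1* and *Mbd2* as shares of chromosome 18 had mean log2 differences of -0.14 and -0.17, beside -0.087 and -0.12 as shares of all gene reads. How often other genes differ on that scale was not counted. The genes of chromosome 18 other than *Mbd1* held 2.77% to 2.83% of gene reads in WT and 2.89% to 2.91% in *Tet2*-KO. These alternatives were also chosen after seeing the data.

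**Figure D3:**
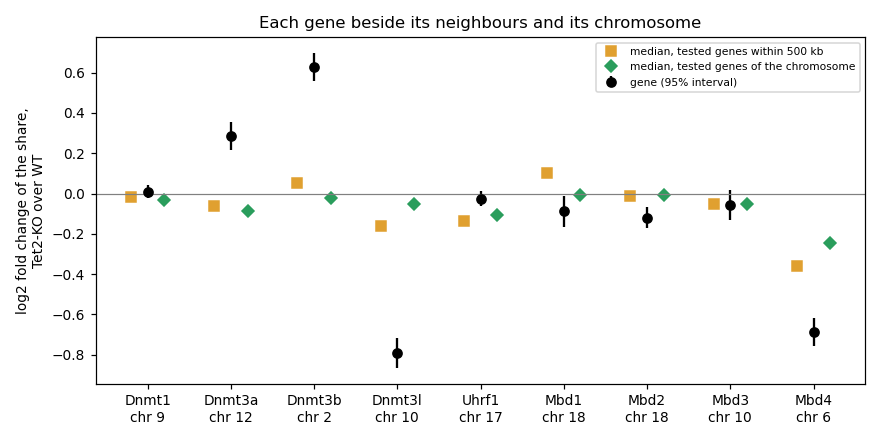
log2 fold change of the share, *Tet2*-KO over WT, mean of labelling times (y axis), for each gene (black, with its 95% interval), for the median of tested genes within 500 kb (orange squares) and for the median of tested genes of its chromosome (green diamonds). Chromosome 6 has the lowest green marker, at -0.24, with *Mbd4* below it at -0.69, while *Dnmt3b*, *Dnmt3a* and *Dnmt3l* stand apart from both of their markers.

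Against the spike-in most genes were higher in *Tet2*-KO, whose libraries held more gene reads per ERCC read. Over the mean of times 7 of the 9 genes were higher in *Tet2*-KO and none was lower, and 80.5% of all genes were higher and 4.15% lower. The median log2 fold change was 0.68 for the 9 genes and 0.70 for all genes. *Dnmt3b* had WT levels, in reads per 1000 ERCC reads, of 1.99, 2.16 and 1.47 at 10 min, 5.92, 6.26 and 6.12 at 20 min and 10.4, 11.5 and 10.5 at 40 min. Its *Tet2*-KO levels were 5.83, 5.48 and 5.63 at 10 min, 12.2, 14.3 and 13.8 at 20 min and 29.8, 24.9 and 27.7 at 40 min, above WT at each time. Its log2 fold change was 1.36 ± 0.059 (SE, adjusted p = 7.80e-77), a fold of 2.57, and that of *Dnmt3a* was 1.02 ± 0.062 (SE, adjusted p = 5.63e-47), a fold of 2.03. *Dnmt1*, *Uhrf1*, *Mbd3*, *Mbd1* and *Mbd2* lay between 0.61 and 0.74, on both sides of the median of all genes. Those 7 genes were higher without overlap at every labelling time, as were 51.6% of all genes, with 1.56% lower without overlap.

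*Dnmt3l* and *Mbd4* were not called over the mean of times on this scale. *Dnmt3l* had WT levels, in reads per 1000 ERCC reads, of 1.81, 1.88 and 1.56 at 10 min, 6.12, 6.73 and 5.74 at 20 min and 10.9, 11.8 and 10.6 at 40 min. In *Tet2*-KO they were 2.16, 1.81 and 2.15 at 10 min, 4.68, 5.23 and 5.21 at 20 min and 11.1, 8.87 and 11.1 at 40 min. The genotypes overlapped at 10 and 40 min and *Tet2*-KO was below WT at 20 min, with a log2 fold change of -0.30 ± 0.11 (SE, adjusted p = 0.0146) at that time and -0.059 ± 0.064 (SE, adjusted p = 0.384) over the mean. *Mbd4* had WT levels, in reads per 1000 ERCC reads, of 2.16, 2.54 and 2.02 at 10 min, 6.84, 8.37 and 6.78 at 20 min and 13.6, 14.6 and 14.2 at 40 min. They were 2.79, 2.41 and 2.56 at 10 min, 6.36, 7.12 and 6.35 at 20 min and 15.8, 14.1 and 14.5 at 40 min in *Tet2*-KO, with overlap at each time and a log2 fold change of 0.043 ± 0.061 (SE, adjusted p = 0.508). Their 95% intervals ran from -0.18 to 0.067 and from -0.076 to 0.16. By single labelling time the higher genes were 7 at 10, 20 and 40 min, against 79%, 53.7% and 68.2% of all genes, and the lower ones 0, 1 and 0, against 2.1%, 4.86% and 2.84%. At 10 min *Dnmt3l* at 0.22 ± 0.11 (SE, adjusted p = 0.0549) and *Mbd4* at 0.21 ± 0.11 (SE, adjusted p = 0.0629) lay near the threshold. The count of higher genes at 10 min was 7 to 9 with 1 library left out, and 8 with at least 10 counts in every library. The 1 lower gene, *Dnmt3l* at 20 min, was no longer called without replicate 1 of *Tet2*-KO or replicate 2 of WT at 20 min, which gave 0.

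**Figure D4:**
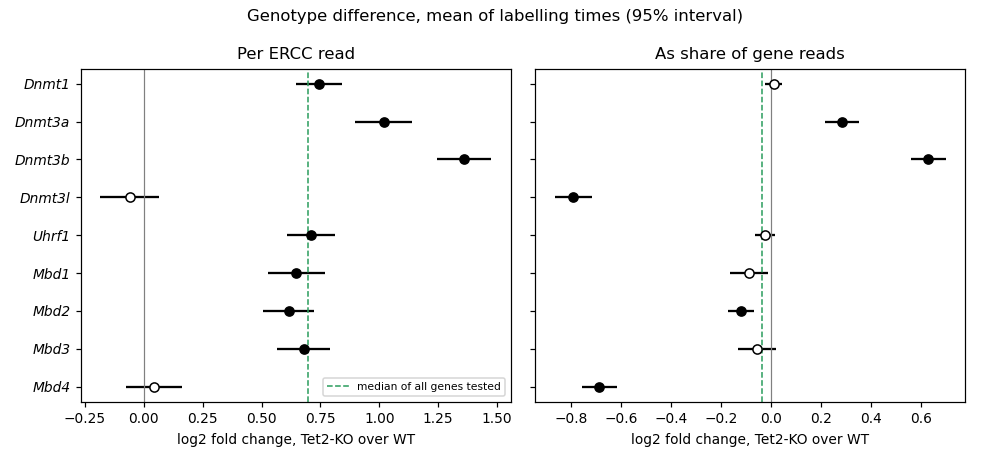
log2 fold change, *Tet2*-KO over WT (x axis), for the 9 genes (y axis) over the mean of labelling times, per ERCC read on the left and as a share of gene reads on the right, with 95% intervals, filled points for genes called by edgeR and the median of all tested genes as a green dashed line. 5 genes sit near the line in both panels, with *Dnmt3b* and *Dnmt3a* to the right of it and *Dnmt3l* and *Mbd4* to the left.

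With longer labelling most of these genes took a larger share of the reads. From 10 to 40 min 6 of 9 rose and 2 fell in WT, against 16.1% and 29.5% of all genes, and 7 rose and 2 fell in *Tet2*-KO, against 16.5% and 20%. The 40 min contrast in WT depends on scale: the median of all genes was -0.14 on the log2 scale and -0.034 under TMM, where all genes split into 4546 higher and 4383 lower in place of 3196 and 5875. Relative to the median of all genes, WT values were 0.58 for *Mbd3*, 0.45 for *Dnmt1*, 0.40 for *Dnmt3l*, 0.39 for *Mbd4*, 0.38 for *Mbd1*, 0.31 for *Uhrf1* and 0.26 for *Dnmt3b*. The corresponding *Tet2*-KO values ran from 0.26 for *Uhrf1* to 0.54 for *Mbd3*. *Mbd2* was close to all genes, at -0.044 in WT and -0.086 in *Tet2*-KO, and its calls as lower, -0.18 ± 0.045 (SE, adjusted p = 0.00129) and -0.14 ± 0.046 (SE, adjusted p = 0.0144), were lost under TMM and DESeq2.

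*Dnmt3a* had the deepest fall with labelling time of the 9 genes. Its share changed from 10 to 40 min by -0.73 ± 0.061 (SE, adjusted p = 1.01e-11) in WT and by -0.45 ± 0.059 (SE, adjusted p = 2.51e-07) in *Tet2*-KO, and both were called under TMM and DESeq2 as well. Relative to the median of all genes the change was -0.59 and -0.39. *Dnmt3a* is also the longest of the 9 genes, with a span of 108.4 kb, and the part of length in this fall was not tested. *Dnmt3b* rose by 0.22 ± 0.060 (SE, adjusted p = 0.00377) in *Tet2*-KO and had 0.13 ± 0.063 (SE, adjusted p = 0.107) in WT, where TMM called it higher at 0.23 (adjusted p = 0.00364), as did leaving out replicate 1 or 2 of WT at 10 min, at 0.18 and 0.17. The genotype difference itself changed with labelling time for 1 of 9 genes, *Dnmt3a*, by 0.28 ± 0.085 (SE, adjusted p = 0.0321), against 5.89% of all genes called higher and 3.36% lower. That call did not hold under TMM, where all genes split into 774 higher and 1219 lower in place of 1173 and 668. For *Dnmt3b*, *Dnmt3l* and *Mbd4* the change was 0.096 ± 0.087 (SE, adjusted p = 0.576), 0.017 ± 0.093 (SE, adjusted p = 0.944) and 0.21 ± 0.089 (SE, adjusted p = 0.156).

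The study took the slope of the calibrated level on labelling time as the transcription rate, and slopes are given here as a description with no test. For all gene reads the slope in *Tet2*-KO was 1.55 times that in WT, and the median ratio over protein-coding genes was 1.54, with quartiles of 1.29 and 1.86. *Dnmt3b* gained 0.287 ± 0.0206 reads per 1000 ERCC reads per min (SE, n = 9) in WT and 0.724 ± 0.0391 in *Tet2*-KO, a ratio of 2.52. *Dnmt3a* gained 0.140 ± 0.0253 and 0.329 ± 0.0201, a ratio of 2.35, and its WT means were 2.07, 5.25 and 6.63 reads per 1000 ERCC reads at 10, 20 and 40 min. Both de novo enzymes lay above the upper quartile. *Dnmt1* gained 2.07 ± 0.101 and 3.14 ± 0.154, the steepest slopes of the 9 genes, with a ratio of 1.52. The ratios of *Uhrf1*, *Mbd1*, *Mbd3* and *Mbd2* were 1.63, 1.57, 1.49 and 1.41, all within the quartiles. *Mbd4* gained 0.388 ± 0.0220 and 0.408 ± 0.0143, a ratio of 1.05, and *Dnmt3l* gained 0.303 ± 0.0221 and 0.276 ± 0.0196, a ratio of 0.912, both below the lower quartile. Slopes from 10 and 20 min only gave lower ratios for all 9 genes than slopes from 20 and 40 min only, and for *Dnmt3a* these were 1.13 and 4.58. The median log2 fold change per ERCC read at 10, 20 and 40 min was 0.96, 0.45 and 0.67 over all genes tested. Over the 9 genes it was 0.95, 0.42 and 0.65, so the smaller difference at 20 min was not particular to them.

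**Figure D5:**
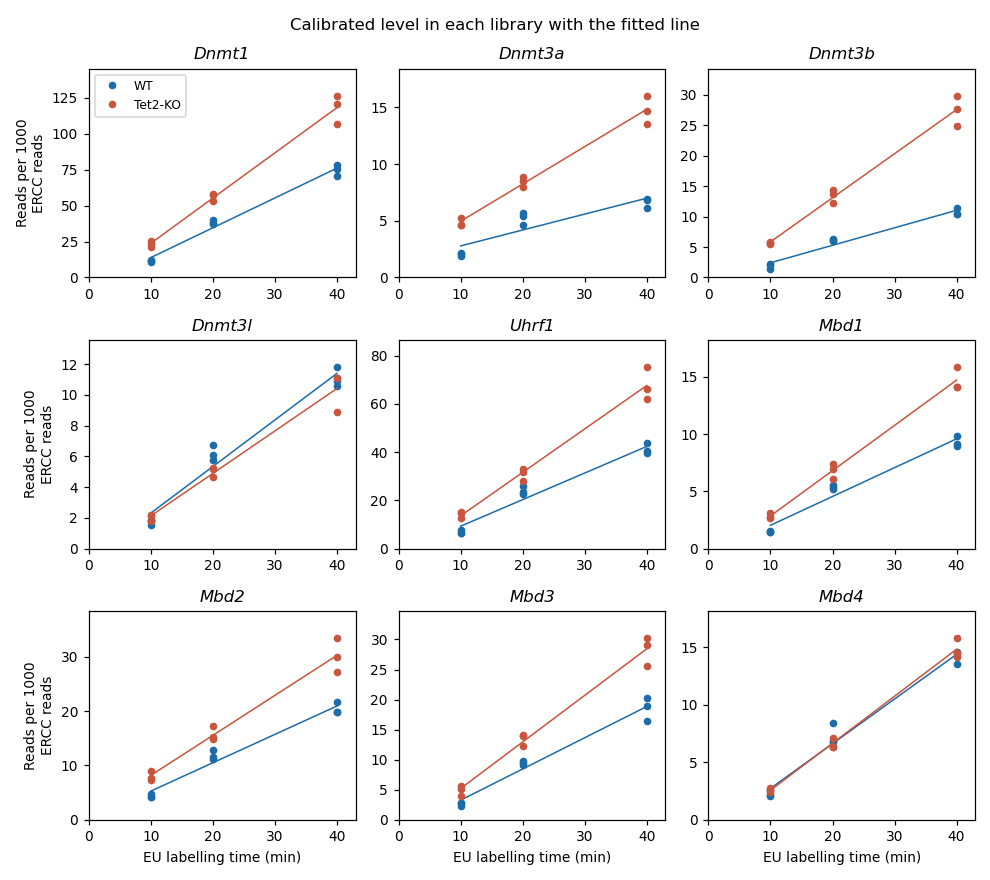
Reads per 1000 ERCC reads (y axis, from 0) against EU labelling time (x axis, min), 1 point per library, WT in blue and *Tet2*-KO in red, with the least-squares line of each genotype. The red line is steeper for 7 genes and close to the blue line for *Dnmt3l* and *Mbd4*.

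Partners of the de novo enzymes were mostly higher in share, beside the 24.6% of all genes higher, 32% lower and the median of -0.037. Of 9 tested genes 7 were higher and 1 lower, with a median of 0.17, from *Kdm1b*, an H3K4 demethylase, at -0.23 ± 0.043 (SE, adjusted p = 2.92e-05) to *Prdm14*, a pluripotency factor that represses the de novo methylation genes, at 0.26 ± 0.044 (SE, adjusted p = 4.17e-06). Among partners of maintenance 4 of 9 were higher and 3 lower, with a median of -0.057. The lowest was *Dppa3*, which holds UHRF1 away from chromatin, at -0.84 ± 0.17 (SE, adjusted p = 8.34e-05) and only 2.79 CPM in WT, and the highest was the *Uhrf1* paralog *Uhrf2* at 0.28 ± 0.021 (SE, adjusted p = 2.18e-13). Of 12 S phase genes 5 were higher and 5 lower (median -0.0027), from the helicase subunit *Mcm2* at -0.35 ± 0.018 (SE, adjusted p = 1.91e-17) to *Mcm7* at 0.20 ± 0.023 (SE, adjusted p = 2.70e-09).

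Among other methyl-CpG readers and genes with this domain 5 of 10 were higher and 2 lower (median 0.040), with *Baz2b*, which has a domain of this family, highest at 0.42 ± 0.012 (SE, adjusted p = 1.70e-24) and the zinc finger reader *Zbtb33* lowest at -0.29 ± 0.13 (SE, adjusted p = 0.0531). Of 13 NuRD subunits 4 were higher and 2 lower (median 0.021), from the deacetylase *Hdac1* at -0.16 ± 0.023 (SE, adjusted p = 2.81e-07) to *Mta1* at 0.42 ± 0.030 (SE, adjusted p = 5.88e-14). In oxidation and base excision repair 3 of 12 were higher and 4 lower (median -0.040), and the ends of the list were 2 glycosylases, *Neil2* at -1.17 ± 0.090 (SE, adjusted p = 4.18e-13) and *Ung* at 0.55 ± 0.036 (SE, adjusted p = 5.88e-15). The enzymes of the S-adenosylmethionine cycle, which supply the methyl group, had 3 of 8 higher and 2 lower (median -0.0073), with *Mat2a*, which makes S-adenosylmethionine, highest at 0.39 ± 0.018 (SE, adjusted p = 2.87e-19). Per ERCC read, where 80.5% of all genes were higher and 4.15% lower, 9 of 9 de novo partners, 8 of 9 maintenance partners, 10 of 10 readers, 13 of 13 NuRD subunits, 11 of 12 repair genes, 8 of 8 cycle enzymes and 12 of 12 S phase genes were higher, and *Neil2* was lower.

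Across the 18 libraries, which share 2 genotypes and 3 labelling times, the genes with the most similar share were found by Pearson correlation of log2 shares among 8739 protein-coding genes, as a description. For *Dnmt3l* they were *Plpp1* (0.991) and *Slc7a7* (0.990), and for *Dnmt3b* *Adgrg6* (0.980) and *Fkbp6* (0.978). *Dnmt3a* went most closely with *St5* (0.973) and *Prdm14* (0.972), the second of which was named above. For *Mbd4* they were *Zfp638* (0.983) and *Kdm5a* (0.980), both on chromosome 6 like *Mbd4* itself. The nearest genes to *Dnmt1* were *Mybbp1a* (0.980) and *Tnrc6a* (0.974), to *Uhrf1* *Eda* (0.937) and *Cenpf* (0.884) and to *Mbd3* *Rrp12* (0.946) and *Gpkow* (0.938). For *Mbd1* they were *Oma1* (0.900) and *Ttc19* (0.887), and for *Mbd2* *Frmd4a* (0.916) and *Xpnpep1* (0.898), with no gene of their own chromosome among them. Within the family the highest correlations were 0.96 between *Dnmt3l* and *Mbd4* and 0.92 between *Dnmt1* and *Mbd3*, and the lowest was -0.84 between *Dnmt3b* and *Dnmt3l*.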

How the data were processed

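Nascent RNA libraries of WT and *Tet2*-KO mES cells were grouped by the genotype and EU time in their titles. Per the submitters' notes and the study's methods, the authors trimmed reads with Trimmomatic 0.39, aligned them with HISAT2 2.2.1 to mm10 with GENCODE M19 and the ERCC sequences, and deposited raw counts per gene from HTSeq 0.12.4, without normalization. The feature type, strand setting and overlap mode of HTSeq are not given in the sources used here. Counts followed exon length more closely than gene span (exponent 0.887 against 0.170 in a regression over 15239 protein-coding genes), so lengths are exon unions. Summary rows that name no gene made up 20.9% to 24.9% of each file's total (13.2% to 16.9% with no feature, 2.32% to 2.50% ambiguous) and were left out. Of 54446 gene identifiers 54409 were found in GENCODE M21, on the same build. Overlapping and antisense genes are uncertain.

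Genes kept by filterByExpr (minimum count 10, 19910 genes) were fitted with edgeR 4.0.16 (R 4.3.3) as 6 groups in 1 quasi-likelihood fit, once with ERCC reads and once with gene reads as library size. Calls used an adjusted p under 0.05. The 4 read ratios used an exact permutation test of genotype labels within labelling times. Rates are least-squares slopes with an intercept. Intervals of log2 fold changes are at the 95% level. On simulated data for the share of gene reads over the mean of times, 199 of 200 changed genes were recovered and 8 others called among 19910. The changed genes were well counted, raised as often as lowered, and changed by more than *Mbd1* or *Mbd2*. Counts were drawn with the dispersion of the fit itself. The check therefore does not cover small changes or the choice of scaling. Replicates were not copies of one library, with a chi-square per gene of 1.66 to 5.53 over 18 pairs. Reads carry no molecular identifiers, so read counts are not counts of molecules.

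The genes named besides the members were the highest and the lowest in share of each list of related genes, the 2 most correlated protein-coding genes per member, direct neighbours and overlapping genes, markers and *Tet2*. Neighbours, overlapping genes and markers were named after their values were seen. *Mbd1* and *Mbd2* sequences are not shown. One gene that this rule names is not reported here. The members and lists were chosen with earlier results of these data known. Alternatives were TMM, DESeq2 1.42.0 with gene or ERCC size factors, other filters, ERCC totals from transcripts that had 100 reads or more in all libraries, protein-coding reads as library size, each labelling time alone, a replicate block, pairs of labelling times, slopes through the origin, gene span, a pseudocount of 0.5 in the ratios, and each library left out.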

Additional observations from a re-analysis of the deposited data

Results flagged for a closer look

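The difference between *Tet2*-KO and WT in the share of *Dnmt3a* was larger after 40 min of EU than after 10 min, which is a difference between labelling times under the same contrast. It was tested as an interaction term in edgeR and came to 0.28 ± 0.085 on the log2 scale (SE, adjusted p = 0.0321), from 0.19 ± 0.058 at 10 min to 0.47 ± 0.062 at 40 min. The call was lost under TMM (0.22, adjusted p = 0.102), DESeq2 with gene size factors (0.22, adjusted p = 0.097) and with no filter on low counts (0.28, adjusted p = 0.0539). It was also lost in 8 of 18 repeats that left out 1 library. For *Tet2*-KO these were replicate 1 at 10 min (0.25) and each replicate at 40 min (0.28 each). For WT they were replicates 1 and 3 at 10 min (0.27 each) and replicates 2 and 3 at 40 min (0.27 and 0.25). Over all 18 repeats the adjusted p ran from 0.0235 to 0.102.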

How the results depend on the processing

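The calls of *Dnmt3a*, *Dnmt3b*, *Dnmt3l* and *Mbd4* over the mean of times as a share held under every alternative fit run and without any 1 library, as did the direction of the read ratios. Counts with TMM equalled the reported ones for 5 of 14 counts and with DESeq2's gene size factors for 7 of 14, mostly by 1 gene. Both gave 1 gene lower from 10 to 40 min in WT and in *Tet2*-KO in place of 2 (*Mbd2* at -0.079 and -0.082 in WT, -0.099 and -0.11 in *Tet2*-KO). Both gave 0 in place of 1 for the change of the genotype difference, as did no filter. Under DESeq2 and TMM, values that were not called turned sign for that change in *Dnmt3l* (-0.047 and -0.040), *Mbd2* (-0.027 and -0.020), *Mbd3* (-0.024 and -0.019) and *Uhrf1* (-0.035 and -0.028), and for the mean share of *Uhrf1* (0.0099 and 0.015). *Mbd1* was called lower at the adjusted p of 0.0484 with at least 10 counts in every library and 0.0342 with protein-coding reads as library size, and without 1 of 7 libraries (replicates 2 and 3 at 10 min and 2 at 20 and 40 min in *Tet2*-KO, replicates 1 and 2 at 10 min and 2 at 20 min in WT, -0.096 to -0.10).

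Ratios of rates from 10 and 20 min only and from 20 and 40 min only were 1.23 and 1.69 for *Dnmt1*, 1.13 and 4.58 for *Dnmt3a*, 1.84 and 3.01 for *Dnmt3b*, 0.674 and 1.08 for *Dnmt3l*, 0.979 and 2.15 for *Uhrf1*, 1.01 and 2.02 for *Mbd1*, 1.04 and 1.67 for *Mbd2*, 1.24 and 1.64 for *Mbd3* and 0.792 and 1.21 for *Mbd4*. The cause was not tested. Leaving out 1 library gave 1 to 2 lower genes from 10 to 40 min in *Tet2*-KO (1 without replicate 3 at 10 min or 2 at 40 min), 0 to 1 for the change of the genotype difference and 0 to 1 lower per ERCC read at 20 min. The change in single genes ran from -0.047 to 0.0042 for *Dnmt1*, -0.037 to 0.068 for *Dnmt3l*, -0.046 to 0.093 for *Mbd3* and -0.0093 to 0.053 for *Uhrf1*.

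Same-numbered libraries did not deviate together (correlations of -0.23 to 0.20, median -0.0025), so no pairing by number was seen. Such correlations cannot exclude a weak one. The replicate block gave 3 higher genes at 20 min as a share in place of 2 and left the other 21 of 22 counts as they were. Depth was 364 reads or more per gene and library.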

Other observations

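Genes that overlap or neighbour the family had values of their own. *Aire*, antisense to the start of *Dnmt3l*, had a mean share of 22.4 CPM in WT at 10 min and 12.8 at 40 min, and 14.3 and 9.78 in *Tet2*-KO, and its log2 fold change from 10 to 40 min by edgeR was -0.81 ± 0.12 (SE, adjusted p = 7.29e-07) in WT and -0.54 ± 0.13 (SE, adjusted p = 9.61e-04) in *Tet2*-KO, where *Dnmt3l* rose. *Gm44206*, antisense to *Mbd4*, changed from 10 to 40 min in WT by -1.31 ± 0.17 (SE, adjusted p = 1.28e-07) and had -0.18 ± 0.18 (SE, adjusted p = 0.464) in *Tet2*-KO, and the difference between these was 1.12 ± 0.25 (SE, adjusted p = 0.00292). *Dnmt3c*, the paralog beside *Dnmt3b* known for methylation of young retrotransposons in male germ cells, had a log2 fold change of 1.20 ± 0.27 (SE, adjusted p = 1.26e-05) per ERCC read and 0.47 ± 0.25 (SE, adjusted p = 0.11) as a share.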
